A study of Mus musculus with 16 samples.

Results

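The cytosolic ribosomal proteins are the proteins that, with the ribosomal RNAs, make up the ribosome of the cytoplasm. The genes were chosen by symbol, as those written Rpl or Rps with a number and at most a short suffix, together with the stalk genes Rplp0, Rplp1 and Rplp2. The rule took 85 of the 24972 genes in the data, of which 53 carry large subunit (Rpl) and 32 small subunit (Rps) symbols, retained paralogs included. GENCODE lists Rpl32l as a processed pseudogene, and neither Rpl32l nor Rps4l has a coding sequence in the annotation. They were measured by bulk RNA-sequencing in 16 libraries of the dorsal hippocampal subregions CA1, CA3 and DG (dentate gyrus), each pooled per animal from microdissected tissue. All mice were adult ArcCreERT2::eYFPflx animals on a C57BL/6 background, aged 3 to 4 months. They carry a tamoxifen-inducible Cre under the Arc promoter and a floxed eYFP reporter, and controls carry both alleles too. Trained mice learned active place avoidance on a rotating arena with an active shock zone. Untrained mice spent the same trials on the arena with the shock off. Tissue was taken an hour after a retention test that followed the last training session by a day. Each subregion was represented by 3 trained mice, and by 3 untrained mice in CA1 but 2 in CA3 (replicates 1 and 2) and 2 in DG (replicates 1 and 3). Each value is a normalized count, the estimated read count of a gene divided by a factor for its library. Values of different genes therefore also depend on transcript length, and their order is not read as an order of transcript number. The reads behind a value are unknown. Replicates of a group are separate animals, while libraries of different subregions partly share animals.

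Ribosomal protein genes are among the most strongly transcribed genes of every cell, and their mRNAs share a control element. Most begin with a run of pyrimidines at the cap, the terminal oligopyrimidine (TOP) tract, through which mTOR signalling and the protein LARP1 set how strongly they are translated. In neurons, ribosomes and many ribosomal protein mRNAs are also found in dendrites and axons, and learning is known to need new protein synthesis. The genes also gave rise to a large number of processed copies in the mouse genome, which matters for how reads are assigned.

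Because the copies decide which values can be read, the sequences of the pairs with the most similar copies are shown first. In GENCODE vM21 (build GRCm38), 77 of the 85 genes had at least 1 transcript elsewhere with 95% identity or more over at least 90% of the coding sequence, and Rpl21 had 56 of them. For 17 genes at least 1 such copy outside the set is listed in the data under its own name. Rps27 (chr3:90212522-90213651, minus strand) and the intronless copy Rps27rt (chr9:114982366-114982739, minus strand) have the same 255 coding bases, so a read from this stretch cannot be told apart between them.
Rps27 and Rps27rt: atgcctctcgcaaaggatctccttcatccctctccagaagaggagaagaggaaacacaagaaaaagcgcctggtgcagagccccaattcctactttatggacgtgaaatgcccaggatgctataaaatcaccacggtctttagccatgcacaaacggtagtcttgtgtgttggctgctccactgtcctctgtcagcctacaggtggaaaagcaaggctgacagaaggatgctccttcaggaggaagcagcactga
Rpl34 (chr3:130726831-130730398, minus strand) and the processed pseudogene Rpl34-ps1 (chr6:71124610-71124963, plus strand) differ at 2 of 354 bases, which are in capitals in the stretch from base 102 to base 354 shown here. Counted from the first base of the start codon, the differences are T132C and C318G, with the base of Rpl34 first.
Rpl34: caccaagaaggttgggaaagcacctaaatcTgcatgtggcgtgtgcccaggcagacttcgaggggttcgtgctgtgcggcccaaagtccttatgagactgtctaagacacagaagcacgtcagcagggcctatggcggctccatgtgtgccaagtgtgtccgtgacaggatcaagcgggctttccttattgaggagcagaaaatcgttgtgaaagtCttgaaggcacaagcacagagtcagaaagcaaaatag
Rpl34-ps1: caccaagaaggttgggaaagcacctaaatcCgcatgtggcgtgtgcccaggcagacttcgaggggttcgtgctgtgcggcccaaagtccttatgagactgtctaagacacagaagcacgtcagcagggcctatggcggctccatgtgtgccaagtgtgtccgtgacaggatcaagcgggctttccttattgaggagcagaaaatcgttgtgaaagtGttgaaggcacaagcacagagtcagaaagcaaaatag

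The pyrimidine tract itself is shown for 4 genes described below, from 10 bases before to 20 bases after the RefSeq transcript start (GRCm38.p6). Capitals mark the longest run of a C followed by at least 4 C or T that begins within 10 bases of that start on the coding strand.
Rplp2 (chr7:141447641-141447670, plus strand): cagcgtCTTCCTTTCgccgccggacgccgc
Rps6 (chr4:86857348-86857377, minus strand): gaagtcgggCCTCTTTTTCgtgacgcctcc
Rpl7a (chr2:26910797-26910826, plus strand): CTCTTCTTTCTTTCTCCagcagccgagcaa
Rpl27a (chr7:109519185-109519214, plus strand): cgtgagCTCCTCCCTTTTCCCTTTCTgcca
Of the 64 genes of the set with an annotated start in the RefSeq table, 40 (62.5%) had such a run within 10 bases of the start and 14 (21.9%) at the start itself, against 34.4% and 3.01% of the 27025 genes in the table. Starts are annotated to within some bases only, so the letters are a description of the window. The 37 tested genes with a run had a median log2 difference of -0.02 between trained and untrained libraries of all subregions, and the 24 without had -0.03. The medians with and without a run were also close in CA1 (-0.02 and -0.03), CA3 (-0.06 and -0.09) and DG (0.06 and 0.07).

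Several properties of the libraries stand beside the results that follow. The markers of the labelled subregions separated them only in part. The summed level of 5 CA1 pyramidal markers was between 1767 and 5335 in CA1, above all CA3 libraries (925 to 1751), and between 1413 and 2164 in DG, overlapping with CA1. The sum of 5 CA3 pyramidal markers overlapped between the labels, at 1507 to 2310 in CA1, 1921 to 2954 in CA3 and 2173 to 2490 in DG. The summed level of 6 dentate granule markers ranged from 7946 to 9867 in CA1, from 7369 to 12306 in CA3 and from 8632 to 10950 in DG, and Prox1, a transcription factor of dentate granule cells, was between 2690 and 4786. No marker of any list passed the test between any pair of subregions. Xist was between 7601 and 19592 in the 9 trained libraries, between 25.5 and 52.4 in 6 of the 7 untrained ones and 10587 in untrained CA3 replicate 1, although 1 trained mouse was stated to be male and 1 untrained mouse female. All 3 untrained CA1 libraries had Xist between 26.1 and 52.4 and the Y-linked Ddx3y between 484 and 553. In untrained CA3 replicate 1 Ddx3y was at 201 beside the high Xist, while CA1 and DG of the same numbered animal had Xist at 26.1 and 25.5, and in trained DG replicate 3 Xist was at 7601 and Ddx3y at 255. Ddx3y was also at 70.9 and 101 in trained CA1 replicates 1 and 3 and at 92.9 in trained CA3 replicate 3. In the remaining trained libraries it was between 1.66 and 12.9. Whether any of these libraries are mixed or mislabelled was not tested. Untrained CA3 replicate 1 is 1 of only 2 untrained CA3 libraries. Apart from that library, the level of Xist divides the libraries as training does, and the 2 cannot be told apart. Far more genes were listed at 0 in 7 libraries (7567 to 9759 genes) than in the other 9 (3124 to 5944), namely in both untrained DG libraries, in trained CA1 throughout and in replicates 1 and 2 of trained CA3. In bulk tissue, fewer cells of a type and less RNA per cell cannot be told apart.

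The ribosomal protein genes together held between 0.889% of the summed value (trained CA3 replicate 2) and 1.09% (trained DG replicate 3). Of the 85 genes, 75 were at 100 or more throughout. Their means over the libraries ran from 247 (Rpl7l1) to 3207 (Rpl3), with a median of 880. These levels were steady, since the median coefficient of variation over the 16 libraries was 9.33%, from 4.79% for Rpl15 to 35.8% for Rplp2.

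Of the genes below 100 in some library, Rpl10l, Rpl39l and Rpl3l, paralogs known mainly from testis and striated muscle, had values under 4 in all libraries and were not tested. Rpl32l was between 3.84 and 16.1, Rps4l between 24.7 and 66.2 and Rps27l between 33.8 and 67.6. The ubiquitously used Rps27, Rpl26, Rpl30 and Rpl34 were low next to an abundant copy. Rps27 was between 0 and 12.2 in 15 libraries and at 119 in trained CA3 replicate 2, whereas Rps27rt was between 640 and 1064. Rpl34 had a median of 147 against 534 for Rpl34-ps1, Rpl30 had 72.6 against 775 for its pseudogene Gm12191, and Rpl26 had 48.8 against 967 for its pseudogene Gm15772. In these 4 pairs the gene named for the protein took a median of 0.755%, 23.0%, 7.91% and 4.96% of the pair's sum, so their values alone do not give the expression of the protein's mRNA.

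To ask whether training was accompanied by a change in ribosomal protein mRNAs, trained and untrained libraries were compared with limma on log2(value + 2), with Benjamini-Hochberg adjustment over all genes tested, and genes with an adjusted p under 0.05 are called changed. Across the subregions together, 11 of the 82 tested genes rose and 5 fell, next to 10.3% of all 14673 genes tested (6.28% higher, 4.06% lower). The median of the family was near 0. The median log2 difference was -0.02 against -0.01 over all genes, 34 of the 82 were above 0 (47.8% of all genes were), and 73 of the 82 genes differed by less than 0.3. In CA1, 4 of 80 genes rose and 3 fell (5.23% of all genes changed, 3.53% higher and 1.7% lower). In CA3, 3 rose and none fell (0.852% of all genes changed, 0.737% higher and 0.116% lower), and in DG, 6 rose and 4 fell (3.39% changed, 1.74% higher and 1.66% lower). After removal of the trend with GC content and transcript length the split turned toward lower values in the combined comparison, CA1 and DG. There were 9 higher and 13 lower genes in the combined comparison, 1 and 12 in CA1, and 3 and 5 in DG. In CA3 there was 1 higher gene and none lower. Of all genes, 9.57%, 5.12%, 2.48% and 0.175% were called in the combined comparison, CA1, DG and CA3. With a score of sex-linked transcripts as a covariate, limma called none of the 82 genes (6 at an unadjusted p under 0.05) and none of the 14673 genes (1702 unadjusted). The combined count was 4 without untrained replicate 1 and 8 without trained replicate 2, next to 3.15% and 3.8% of all genes called. The CA1 count was 3 without untrained replicate 1, 3 without trained replicate 2 and 12 without untrained replicate 3, next to 2.46%, 2.74% and 6.46% of all genes called.

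**Figure D1:**
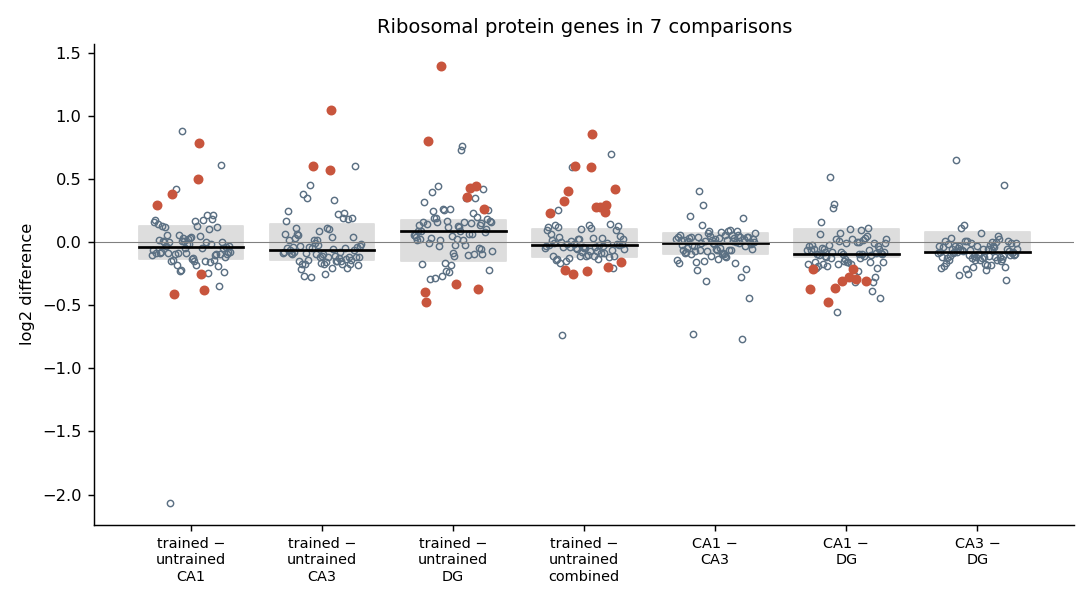
Log2 differences of the ribosomal protein genes (vertical axis) in 4 comparisons of trained with untrained libraries and 3 comparisons of subregions; each point is a gene, filled where its adjusted p was under 0.05, the black line is the median of the genes and the grey box spans the interquartile range of all genes tested. The medians lie near 0 for training in CA1 and CA3, at 0.09 in DG, and below 0 for CA1 and CA3 against DG, and Rpl26 in CA1 (-2.07) was not called.

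Among the genes called in the combined comparison, the acidic stalk proteins Rplp2 and Rplp1 were among those with the largest rises. They form the flexible arm of the large subunit that recruits the elongation factors, with Rplp0 as its base and pairs of Rplp1 and Rplp2 on top. Rplp1 was at 826, 721 and 977 in untrained CA1 and at 1308, 1185 and 1067 in trained CA1. In CA3 it was at 905 and 828 in untrained and at 1439, 1270 and 1167 in trained libraries, and in DG at 719 and 1161 and at 1730, 1461 and 1382. All trained libraries were above all untrained ones within each subregion, and Rplp1 was the only gene of the set with that pattern in the upward direction (1.62% of all genes). The log2 difference was 0.59 ± 0.10 (SE; adjusted p = 0.00181, limma) over the subregions, 0.50 ± 0.11 in CA1 (adjusted p = 0.0246), 0.57 ± 0.10 in CA3 (adjusted p = 0.0284) and 0.73 ± 0.26 in DG (adjusted p = 0.264). The combined call was kept without each replicate in turn, and the CA1 call was lost without trained replicate 1, trained replicate 2 or untrained replicate 1 (adjusted p up to 0.110). It was also lost with the trend with GC content and transcript length removed (0.32, adjusted p = 0.196) and in a single fit of all libraries (adjusted p = 0.125).

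Rplp2 followed the same order in CA1 and CA3. Its values were 228, 198 and 310 in untrained and 473, 416 and 369 in trained CA1, and 208 and 259 against 564, 451 and 434 in CA3. In DG the untrained libraries stood far apart, at 187 and 497, and overlapped with the trained values of 585, 564 and 421. The log2 difference was 0.79 ± 0.15 in CA1 (adjusted p = 0.0121, limma), 1.04 ± 0.13 in CA3 (adjusted p = 0.0101) and 0.76 ± 0.54 in DG (adjusted p = 0.558). In the combined comparison it was 0.86 ± 0.18 (adjusted p = 0.0102) and lost its call without trained replicate 1, trained replicate 2 or untrained replicate 1 (adjusted p up to 0.0933). The CA1 call was lost without trained replicate 2 or untrained replicate 1, with the GC and length trend removed (adjusted p = 0.132) and in a single fit of all libraries (adjusted p = 0.195). A transcript of Wdr89 contains a sequence 99.4% identical to the coding sequence of Rplp2, and Wdr89 was between 21.2 and 45.8, far below Rplp2 itself. Rplp0, the base of the stalk, had a log2 difference of 0.11 ± 0.04 (adjusted p = 0.0760), with a 95% interval from 0.03 to 0.19.

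**Figure D2:**
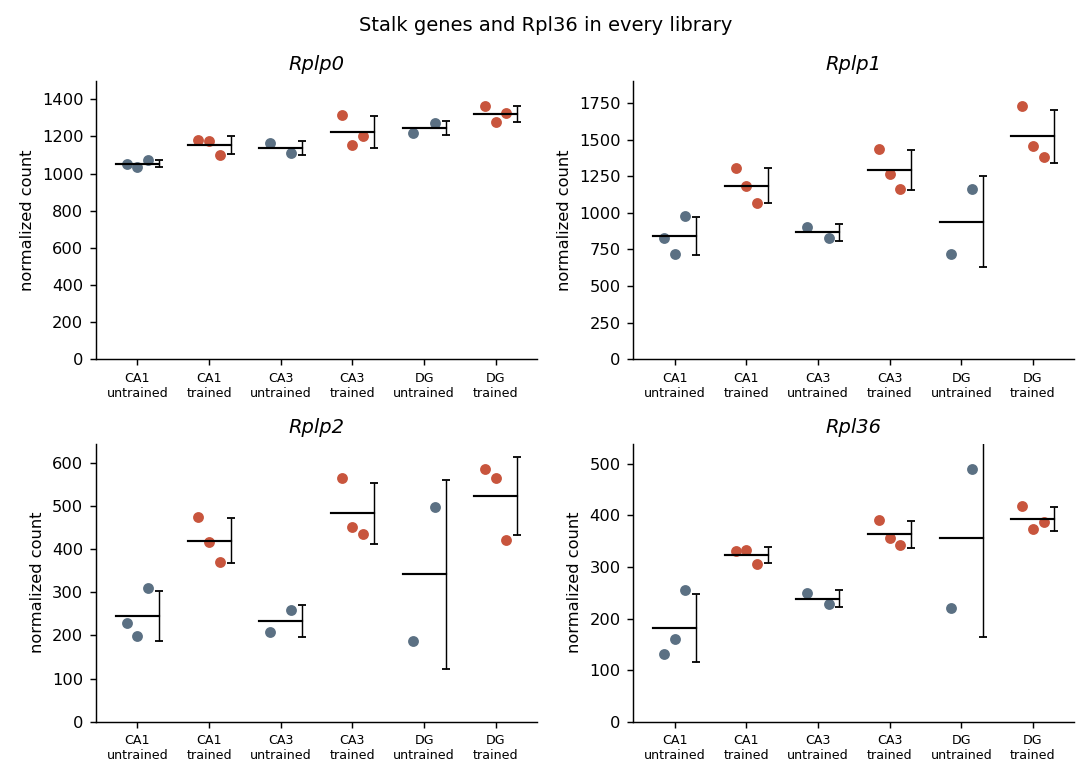
Normalized counts (vertical axis, from 0) of the stalk genes Rplp0, Rplp1 and Rplp2 and of Rpl36 in each library, by subregion and training; points are libraries, the horizontal line is the mean and the bar beside it the SD. Trained libraries of Rplp1 lie above the untrained ones in every subregion, whereas untrained DG spans 187 to 497 for Rplp2 and 221 to 490 for Rpl36.

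Of the other large subunit genes, Rpl36, Rpl13a and Rpl27a were higher in trained libraries, and Rpl30 was called on its low values. Rpl36 was at 130, 160 and 256 in untrained and at 331, 333 and 306 in trained CA1, at 250 and 228 against 392, 356 and 342 in CA3, and at 221 and 490 against 418, 373 and 387 in DG. The groups were separate in CA1 and CA3 and overlapped in DG. Its log2 difference was 0.60 ± 0.10 in CA3 (adjusted p = 0.0268, limma), 0.60 ± 0.17 over the subregions (adjusted p = 0.0406), and 0.88 ± 0.23 in CA1, where it missed the threshold (adjusted p = 0.0777). The combined call was lost in 5 of the 6 fits that each left out a replicate, with an adjusted p of 0.236 without untrained replicate 1.

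Rpl13a, which is known for a second role in silencing translation outside the ribosome and is often used as a reference gene for qPCR, was at 1533, 1447 and 1549 in untrained and at 1892, 1802 and 1845 in trained CA1. The groups did not overlap, and the log2 difference was 0.29 ± 0.05 (adjusted p = 0.00309, limma) in CA1 and 0.23 ± 0.05 (adjusted p = 0.00541) over the subregions. With the trend with GC content and transcript length removed, neither was called (0.13, adjusted p = 0.215 in CA1, and 0.12, adjusted p = 0.121 combined). In DG the untrained values of 1426 and 1873 enclosed 2 of the 3 trained values (1781, 1713 and 1886). Rpl27a was at 684, 729 and 683 in untrained and at 981, 911 and 840 in trained CA1, with a log2 difference of 0.38 ± 0.07 (adjusted p = 0.00313). This CA1 call of Rpl27a was lost in 1 of 10 fits with another setting (adjusted p = 0.0870). Over the subregions its difference was 0.32 ± 0.07 (adjusted p = 0.00782). Both combined calls were lost without untrained replicate 1 (adjusted p = 0.105 for Rpl13a and 0.145 for Rpl27a). Introns of both genes hold small nucleolar RNAs that are listed as genes of their own, such as Snord32a in Rpl13a and Snora3 in Rpl27a.

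Among the small subunit genes, 5 rose in the combined comparison. Rps16, whose tail reaches the decoding site, was at 607, 723 and 758 in untrained and at 851, 812 and 753 in trained CA1, at 719 and 735 against 886, 781 and 877 in CA3, and at 692 and 674 against 899, 897 and 957 in DG. The groups were separate in CA3 and DG, and in CA1 a single trained library lay just under the highest untrained one. The log2 difference was 0.28 ± 0.05 over the subregions (adjusted p = 0.00138, limma) and 0.42 ± 0.08 in DG (adjusted p = 0.00975), and the combined call was kept without each replicate in turn. Rps21 differed by 0.29 ± 0.07 (adjusted p = 0.00782), Rps13 by 0.28 ± 0.07 (adjusted p = 0.00788), and Rps20, a site of ubiquitylation on stalled ribosomes, by 0.24 ± 0.06 (adjusted p = 0.00866). These 3 calls were lost without untrained replicate 1 (adjusted p = 0.150, 0.145 and 0.0696), and those of Rps13 and Rps20 also without trained replicate 2. Rps29 differed by 0.42 ± 0.12 (adjusted p = 0.0377) and lost its call in 5 of the 6 fits without a replicate.

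The genes that fell together in the combined comparison were Rpl35, Rpl7a and Rpl28 of the large subunit and Rps24 and Rps6 of the small subunit. Rpl7a was at 1064, 1121 and 1141 in untrained and at 1004, 1027 and 1021 in trained CA1, at 1314 and 1236 against 1039, 1073 and 1097 in CA3, and at 1531 and 1383 against 1167, 1051 and 1249 in DG. All trained libraries were below all untrained ones within each subregion, a pattern that Rpl28 also had (1.29% of all genes). The log2 difference of Rpl7a was -0.23 ± 0.05 (adjusted p = 0.0023, limma), that of Rpl28 was -0.23 ± 0.05 (adjusted p = 0.00674), and that of Rpl35, a protein at the mouth of the exit tunnel, was -0.25 ± 0.05 (adjusted p = 0.00275). The call of Rpl28 was lost without untrained replicate 1 (adjusted p = 0.0703).

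Rps6, the target of S6 kinase whose phosphorylation is widely used to mark active neurons, was at 1520, 1565 and 1475 in untrained and at 1402, 1385 and 1482 in trained CA1. In CA3 it was at 1685 and 1568 against 1455, 1384 and 1464, and in DG at 1673 and 1889 against 1561, 1399 and 1616. Trained libraries were lower in CA3 and DG, and 1 trained CA1 library lay within the untrained range. The log2 difference of the mRNA was -0.16 ± 0.04 (adjusted p = 0.0153, limma), and phosphorylation is not measured by these libraries. Rps24, a protein mutated in Diamond-Blackfan anaemia, differed by -0.19 ± 0.05 (adjusted p = 0.0138). Both calls were lost without trained replicate 2 or without untrained replicate 1, where the adjusted p reached 0.119 for Rps6 and 0.162 for Rps24.

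The genes that fell in CA1 included Rpl29 and Rps14. Rpl29 was at 695, 672 and 758 in untrained and at 513, 559 and 525 in trained libraries, and Rps14, known from the 5q- syndrome in which a copy is lost, was at 1185, 1242 and 1080 against 827, 853 and 1022. Neither gene had overlapping groups. The log2 differences were -0.41 ± 0.08 for Rpl29 (adjusted p = 0.00262, limma) and -0.38 ± 0.08 for Rps14 (adjusted p = 0.00825). The call of Rps14 was lost without trained replicate 2 or untrained replicate 1 (adjusted p up to 0.0618). In all, 12 genes had all trained CA1 libraries above and 15 below the untrained ones, next to 12.9% and 11.1% of all genes. Markers of cell types moved in the same libraries. Of the 5 CA1 pyramidal markers 2 fell, of the 5 CA3 pyramidal markers 4 rose, and the summed CA1 markers were between 3314 and 5335 in untrained and between 1767 and 2129 in trained CA1. Of the 5 leptomeningeal markers 2 fell, with sums between 2045 and 2206 in untrained and between 1061 and 1331 in trained CA1. No marker of these lists was at 0 in all libraries, and their part in the differences was not tested.

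In CA3 only Rplp2, Rplp1 and Rpl36 were called. All 3 lost the call without trained replicate 2 and without untrained replicate 1, and Rplp2 alone was called without untrained replicate 2. With the GC and length trend removed Rplp2 alone was called (0.175% of all genes called). A single fit of all libraries called none of them, with an adjusted p of 0.161 for Rplp2, 0.153 for Rplp1 and 0.377 for Rpl36, next to 2.81% of all genes called. In this subregion 10 genes had trained values all above and 22 all below the untrained ones, next to 17.2% and 16.7% of all genes. Rps4l was also high (0.60 ± 0.20) and missed the threshold (adjusted p = 0.176). The lowest values were those of Rpl35 (-0.27 ± 0.09, adjusted p = 0.183), Rpl28 and Rpl7a, which were not called. Of the 80 genes tested, 52 were below 0, and the median log2 difference was -0.06 against -0.01 over all genes. The summed choroid plexus markers were between 236 and 317 in trained and between 809 and 1120 in untrained CA3, where 2 of the 5 fell. The leptomeningeal sums were between 1029 and 1771 in trained and between 2154 and 2435 in untrained CA3, and 1 CA3 pyramidal and 1 interneuron marker rose. The part of these markers in the differences was not tested.

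In DG more ribosomal protein genes lay above 0 than below, and both the largest called rise and the largest called fall of the set were found there. Of the 80 genes tested, 55 were above 0 (50.1% of all genes were), with a median log2 difference of 0.09 against 0.0008 over all genes. With the trend with GC content and transcript length removed the median was 0.03, and 3 genes were called higher and 5 lower (2.48% of all genes called). The median was 0.15 for the 31 small subunit genes and 0.06 for the 49 large subunit genes. Trained values were all above the untrained ones for 20 genes and all below for 10, next to 17.5% and 18.2% of all genes. Rpl22l1, a paralog of Rpl22 that can replace it in the ribosome, was at 180 and 171 in untrained and at 318, 286 and 317 in trained DG. Its log2 difference was 0.80 ± 0.12 (adjusted p = 0.0018, limma), and the call was kept without each replicate in turn. Rpl22 itself, the protein tagged in RiboTag mice, was at 589 and 533 against 634, 576 and 648, with a difference of 0.14 ± 0.09 (adjusted p = 0.412).

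The other genes that rose in DG were Rpl34, Rps16, Rps21, Rps14 and Rps3, and those that fell were Rpl21, Rpl19, Rps24 and Rpl7a. Rps14 was at 1021 and 865 in untrained and at 1229, 1128 and 1252 in trained DG (log2 difference 0.35 ± 0.08, adjusted p = 0.0301, limma), opposite to its direction in CA1. This call was lost without trained replicate 1, 2 or 3 or untrained replicate 3 (adjusted p from 0.0776 to 0.140) and with the GC and length trend removed (adjusted p = 0.100). The gene lies on the opposite strand from Ndst1, and strand use in counting is not given in the sources used here. Rps3, which lines the mRNA entry channel, was at 1381 and 1336 against 1596, 1588 and 1694 (0.26 ± 0.07, adjusted p = 0.0475). Its call was lost without trained replicate 1, 2 or 3 or untrained replicate 3 (adjusted p up to 0.196), with the trend removed (adjusted p = 0.0644), without the filter on low values (0.0549) and with the replicate block (0.0587). Rpl21 was at 1690 and 1938 against 1327, 1154 and 1438 (-0.48 ± 0.09, adjusted p = 0.0157), Rpl19 at 1465 and 1750 against 1229, 1139 and 1292 (-0.39 ± 0.08, adjusted p = 0.0196), and Rps24 at 1621 and 1729 against 1314, 1202 and 1361 (-0.37 ± 0.07, adjusted p = 0.0136). The groups did not overlap for any of these genes. The calls of Rpl34, Rps16, Rps21, Rpl21, Rpl19, Rps24 and Rpl7a were lost without trained replicate 2 (adjusted p from 0.0663 to 0.172), those of Rps21, Rpl19, Rps24 and Rpl7a also without trained replicate 1, those of Rps16, Rps21 and Rpl7a without trained replicate 3, and those of Rps21 and Rpl7a without untrained replicate 1. With 2 untrained libraries the counts depended on each of them and on the trained ones. They were 1 without trained replicate 2, 4 without trained replicate 1 and 5 without trained replicate 3, next to 0.203%, 0.671% and 0.734% of all genes called, and 13 without untrained replicate 1 and 20 without untrained replicate 3. Without untrained replicate 1, 5 genes were higher and 8 lower with a median of 0.03 (4.56% of all genes called), and without untrained replicate 3, 16 were higher and 4 lower with a median of 0.12 (11.4% of all genes called). Without trained replicate 2 only Rpl22l1 was called. Both untrained DG libraries were among those with many genes at 0, whereas in CA1 all trained libraries were, so this property ran opposite to training in these subregions. Of the 6 endothelial and mural markers 2 fell, with sums of 1307 and 1718 in untrained and between 1077 and 1102 in trained DG. Of the 6 dentate granule markers 1 fell, and their sums of 10581 and 10950 in untrained DG were above the 8632 to 9241 of trained DG. The part of these properties in the differences was not tested.

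The largest called difference, that of Rpl34 in DG, was not called when the gene was summed with its copy. How reads were divided between the gene and its copy was not tested. Rpl34 was at 95.6 and 53.5 in untrained and at 168, 220 and 190 in trained DG, with a log2 difference of 1.40 ± 0.21 (adjusted p = 0.00578, limma). Rpl34-ps1, which differs from it at the 2 bases shown above, was at 529 and 683 in untrained and at 610, 538 and 544 in trained DG. The sum of both was 625 and 737 against 778, 758 and 734. The groups were separate for Rpl34 and overlapped for the sum, whose log2 difference of 0.16 was not called (adjusted p = 0.350). The share of Rpl34 in the sum was 15.3% and 7.26% in untrained DG and 21.6%, 29.0% and 25.9% in trained DG. In CA1, Rpl34-ps1 fell by 0.32 on the log2 scale (adjusted p = 0.0396), while Rpl34 differed by 0.06 ± 0.13 (adjusted p = 0.864).

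**Figure D3:**
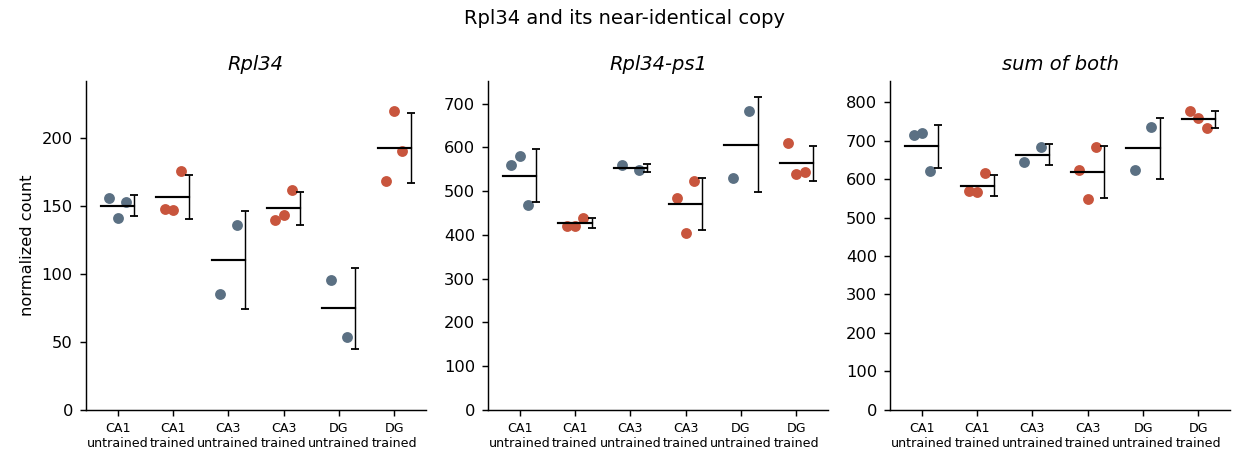
Normalized counts (vertical axes, from 0, each panel on its own scale) of Rpl34, of its near-identical copy Rpl34-ps1 and of their sum in each library, by subregion and training; points are libraries, lines are means and bars SDs. Untrained DG is low for Rpl34 (95.6 and 53.5), and its sum (625 and 737) overlaps with that of trained DG.

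For the other low genes with an abundant copy, summing also changed the result. Rpl30 rose by 0.40 ± 0.12 in the combined comparison (adjusted p = 0.0330, limma), with values between 45.5 and 109 in all libraries, and its sum with Gm12191 and Gm5481 differed by -0.05 (adjusted p = 0.634). Rps27 was at most 12.2 outside a single library and was not called (0.70 ± 0.58, adjusted p = 0.490). Its sum with Rps27rt was 1017, 924 and 864 in untrained and 657, 731 and 741 in trained CA1, with no overlap, and differed by -0.40 in CA1 (adjusted p = 0.00321) and by -0.24 over the subregions (adjusted p = 0.00803). Rpl26, at 0 in a trained CA1 library and at 137 in an untrained one, gave the lowest fitted value of the set (-2.07 ± 1.64, adjusted p = 0.594), and its sum with Gm15772 differed by -0.18 in CA1 (adjusted p = 0.102). These sums were chosen after the values had been seen. Rpl22l1 and Rpl21 in DG and Rpl29 in CA1 also have a named copy (Gm15421, BC004004 and Gm8580), and each kept its call when summed with it.

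The training differences of the subregions were then compared in a single fit of the 6 groups. Between CA1 and DG, 7 of the 82 genes differed in their training effect, next to 2.75% of all genes (1.2% with a higher and 1.55% with a lower effect in CA1). Between CA3 and DG none did (limma, 0.164% of all genes called), with 18 at an unadjusted p under 0.05 next to 11.7% of all genes. Between CA1 and CA3 none did either (limma, 0.0273% of all genes called), with 1 at an unadjusted p under 0.05 next to 6.71% of all genes. In the comparison of CA1 with DG, the effect of Rps14 was lower in CA1 by 0.73 on the log2 scale, that of Rpl22l1 by 0.83, that of Rpl34 by 1.34, that of Rpl29 by 0.60 and that of Rpl35a by 0.48. The effects of Rpl21 and Rpl19 were higher in CA1, by 0.47 and 0.40. Rps14 is the gene of these 7 that was called in both subregions, in opposite directions. The count was 0 without trained replicate 2, 2 without untrained replicate 3, 3 without trained replicate 1 or untrained replicate 1, and 4 without trained replicate 3 or untrained replicate 2, next to shares of all genes called from 0.165% without trained replicate 2 to 2.43% without untrained replicate 3. Rpl35a was in none of these counts. Of the 80 genes tested in all subregions, 20 were above 0 and 17 below 0 in each of them, and 25 were below 0 in CA1 and CA3 and above 0 in DG.

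**Figure D4:**
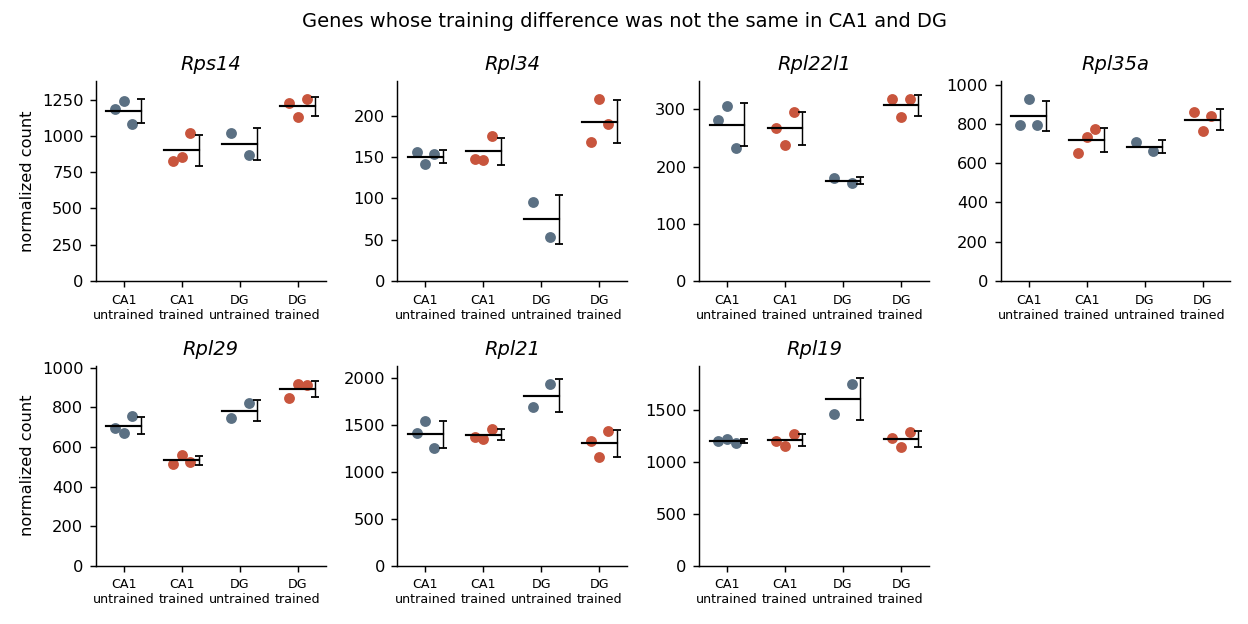
Normalized counts (vertical axes, from 0, each panel on its own scale) of the 7 genes whose training difference in CA1 differed from that in DG; points are libraries, lines are means and bars SDs, with 3 libraries per group except 2 for untrained DG. Training went with less Rps14 in CA1 and with more in DG, and for Rpl22l1, Rpl34, Rpl21 and Rpl19 the untrained DG libraries stand apart from the other 3 groups.

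The subregions were compared with training as a term. CA1 was above DG in 16 of 82 genes (48.6% of all genes were), with a median log2 difference of -0.10 against -0.01. In CA1, 9 genes were called lower and none higher, next to 0.831% and 1.12% of all genes (1.95% in all). They were Rpl35 (-0.36 ± 0.06, adjusted p = 0.00582, limma), Rpl12 at the base of the stalk (-0.37 ± 0.07, adjusted p = 0.0104), Rps2 (-0.30 ± 0.06, adjusted p = 0.0136), Rpl7a (-0.28 ± 0.05, adjusted p = 0.0136), Rpl38 (-0.31 ± 0.06), Rplp0 (-0.22 ± 0.05), Rpl14 (-0.21 ± 0.05), Rpl29 (-0.48 ± 0.11) and Rps10 (-0.29 ± 0.07, adjusted p = 0.0358). Rpl38 is known for its part in translating Hox mRNAs during development. Rpl35 was between 638 and 653 in untrained and between 515 and 579 in trained CA1, against 769 and 930 in untrained and 654 to 772 in trained DG. All CA1 values lay below all DG values, and Rpl35 kept its call without each replicate in turn. The count was 2 without trained replicate 2, 3 without trained replicate 1 and 5 without untrained replicate 2, next to 0.117%, 0.474% and 0.856% of all genes called.

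The lower level in CA1 than in DG was present in trained libraries alone, where 5 genes were lower and the median was -0.14 (1.7% of all genes called, median -0.01). In untrained libraries alone 5 were lower, 2 higher and the median was -0.07 (2.01% of all genes called, median 0.003). CA3 was lower than DG in 69 of 82 genes, while 49.8% of all genes were above 0, with a median of -0.08 and no gene called (limma, 14 at an unadjusted p under 0.05). Of the 14673 genes none was called (715 unadjusted, 4.87%). Against CA3, CA1 had a median of -0.01 and no gene called (limma, 11 at an unadjusted p under 0.05), next to 0.211% of all genes called (0.143% higher, 0.0682% lower), 8.72% unadjusted and 48.3% above 0. The dentate granule and CA3 pyramidal marker sums overlapped between the labels, so these are differences between libraries as labelled.

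The 4 genes on the X chromosome, Rpl10, Rpl36a, Rpl39 and Rps4x, are of interest beside the Xist values. They had log2 differences of -0.05, -0.04, 0.10 and -0.03 in the combined comparison, and none was called. Rpl5 and Rpl11, which with the 5S ribosomal RNA bind the p53 regulator Mdm2, differed by -0.05 (95% interval from -0.14 to 0.04) and 0.09 (from -0.005 to 0.19). Rps27a, made as a fusion with ubiquitin, differed by -0.06 (from -0.19 to 0.06), and Rpl3 and Rpl4 by -0.02 (from -0.11 to 0.08) and -0.08 (from -0.17 to 0.002). Of the genes much used as references, Rps18 differed by 0.04 (from -0.06 to 0.13), Rpl13a was called as described, and Rpl19 differed by -0.14 (from -0.26 to -0.03, adjusted p = 0.109, limma) and fell in DG. The paralogs Rps27l, Rpl36al, Rpl7l1 and Rps4l were expressed at mean values of 55.1, 311, 247 and 47.6 and were called in no comparison.

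Transcript length and GC content were examined because the ribosomal protein genes are short. Their median transcript length was 712 bases (from 368 for Rpl38 to 3706 for Rps20) against 1783 bases over all genes, and 81.2% were shorter than 1000 bases against 26.8%. The median GC content was 51.6% against 49.5%. Over all genes, the log2 difference of the combined comparison had a Pearson's r of -0.20 with log2 length and of 0.17 with GC content, and the GC value was 0.23 in CA3. Within the ribosomal protein genes, the values were -0.13 and 0.06. These correlations run across genes of the same libraries, which are not independent replicates. Genes under 500 bases had a median of 0.17 over all 317 of them and of 0.004 over the 15 of the set. The set was also the lower one in CA1 (0.14 and 0.005) and CA3 (0.15 and 0.02), but not in DG (0.14 and 0.15). Lengths and GC contents are medians over the protein-coding transcripts of a gene, incomplete ones included. Genes without such transcripts took the medians over all their transcripts. For some genes, such as Rpl3 and Rpl13a, the length is shorter than the coding sequence.

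In the comparison of CA1 with DG the GC content went with the difference more closely within the set than over all genes. The Pearson's r with GC content was -0.38 over the 82 genes and -0.03 over all genes. The 22 genes with 55% GC or more had a median log2 difference of -0.18, those between 50 and 55% had -0.08 and those between 45 and 50% had -0.07, while all genes with 55% or more had -0.02. Rpl36, the most GC-rich gene of the set at 60.8%, had the lowest value (-0.56 ± 0.20, adjusted p = 0.187, limma). With the trend of all genes removed, 11 genes were lower in CA1 than in DG and none higher, next to 2.69% of all genes called.

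**Figure D5:**
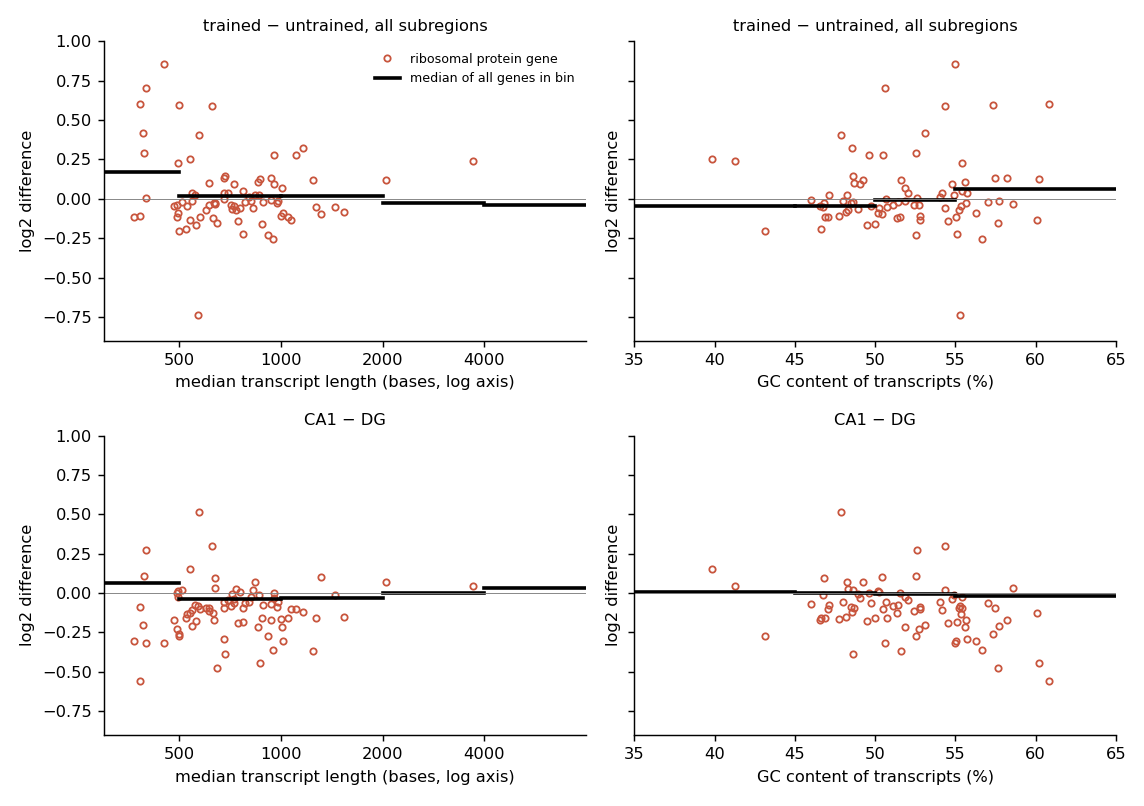
Log2 differences of the tested ribosomal protein genes (vertical axes) against median transcript length (left, log axis) and GC content (right), for trained against untrained libraries of all subregions (top) and CA1 against DG (bottom); points are genes and black lines the median of all genes in each bin. For training, all genes under 500 bases have a median of 0.17 and those of 4000 bases or more -0.04, and for CA1 against DG the ribosomal protein genes with 55% GC or more have a median of -0.18.

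The genes of the set varied together from library to library. After the mean of each group was removed, the mean pairwise correlation over the 16 libraries was 0.15 among the 82 genes. It was 0.001 among all genes and 0.06 among 78 mitochondrial ribosomal proteins. These values are a description, and what lies behind them was not tested.

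Other genes of the pathway gave few calls. Of the ribosomal proteins named outside the rule, Rpsa, Rack1 and Fau did not pass the test with training in any comparison, and Rpsa was lower in CA1 than in DG by -0.25 ± 0.06 (adjusted p = 0.0272, limma). Of 7 elongation factors, the brain isoform Eef1a2 rose in the combined comparison (0.12 ± 0.04, adjusted p = 0.0312). Of 13 other mRNAs with a TOP tract, Naca, Btf3 and Eif4b fell in the combined comparison (-0.21, -0.17 and -0.14) and Hnrnpa1 rose in DG (0.48 ± 0.09, adjusted p = 0.0163). Of 47 ribosome biogenesis genes, the RNA helicase Ddx21 fell in the combined comparison (-0.26 ± 0.07, adjusted p = 0.0146), and Ddx21 and nucleolin (Ncl) fell in DG. With training in DG, 1.74% of all genes were called higher and 1.66% lower. Of 19 genes of mTOR signalling, Ddit4, an inhibitor of mTORC1, rose in the combined comparison (0.33 ± 0.07, adjusted p = 0.00304), and 7 of the 78 mitochondrial ribosomal proteins were higher and none lower, next to 6.28% and 4.06% of all genes. Between CA1 and DG, the mitochondrial ribosomal proteins were lower in CA1 in 68 of 78 genes, with a median of -0.15 and 3 called lower. The elongation factors were lower in CA1 in 6 of 7, with a median of -0.10 and none called. Of all genes, 48.6% were above 0 in this comparison, 1.12% were called higher and 0.831% lower. Of 7 genes for ribosomal protein chaperones and assembly only Btf3, named above, was called.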

How the data were processed

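Bulk RNA-seq was available as 16 libraries, grouped by the subregion and training in their titles. Per the labels and methods, the authors trimmed reads with Trim Galore, aligned them with STAR and quantified them with Salmon. The labels give GRCm38 as the build, while the methods name mm10 beside GRCm39, and the labels name polyA RNA where the methods describe ribosomal RNA depletion. The deposited signal is an estimated count divided by a library factor, and library sums ran from 7607330 to 7984930. It is not whole, so limma 3.58.1 (R 4.3.3) was fitted to log2(value + 2). Its empirical Bayes step was robust and allowed for a trend of variance with level, and p-values were adjusted by Benjamini-Hochberg over all genes tested. Genes needed a value of at least 10 in 3 libraries (CA1) or 2 (otherwise). The combined comparison had subregion as a term, and interactions came from 1 fit of the 6 groups. The method was tested on simulated data. Copies were found with blastn 2.17.0 against GENCODE vM21 transcripts, and 24464 of 24972 symbols (98.0%) matched.

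Numbers in the titles mark an animal within the trained or the untrained mice. Libraries entered as independent because the study describes no animal block and libraries of untrained replicate 1 disagreed on sex-linked transcripts. Libraries of the same number deviated together little (correlations from -0.108 to 0.092 across genes, consensus -0.035), a check that relies on these numbers. With the animal as a random block, limma called 19 genes combined and 9 for CA1 against DG (12% and 1.7% of all genes). The genes and lists were chosen with earlier results of these data known. Genes were named where called in a training comparison or an interaction, where among the 3 highest or lowest of a comparison, or by role. Genes called between subregions were named in addition, after their values were seen. Alternatives covered the pseudocount, filters, rescaling, the GC and length trend, summing of copies, blocks, covariates and leaving out libraries. Libraries of untrained CA3 replicate 3 and untrained DG replicate 2 were not analysed here. Some results are not reported here.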

Additional observations from a re-analysis of the deposited data

Results flagged for a closer look

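The training differences of 7 ribosomal protein genes were unequal in CA1 and DG by the interaction test of limma (82 genes tested, 2.75% of all genes called), given as the log2 difference in CA1 minus that in DG. The value was -1.34 ± 0.27 for Rpl34 (adjusted p = 0.0145), and it was -0.39 (adjusted p = 0.0959) when Rpl34 was summed with Rpl34-ps1. It was -0.83 ± 0.17 for Rpl22l1 (adjusted p = 0.0154) and -0.73 ± 0.14 for Rps14 (adjusted p = 0.0115). For Rpl29 it was -0.60 ± 0.16 (adjusted p = 0.0396) and for Rpl35a -0.48 ± 0.12 (adjusted p = 0.0332). The effects of Rpl21 and Rpl19 were higher in CA1, by 0.47 ± 0.12 (adjusted p = 0.0358) and 0.40 ± 0.11 (adjusted p = 0.0402). With genes summed with their near-identical copies, 5 genes of the set were called, 1 higher and 4 lower in CA1, next to 2.73% of all genes. Each of the 7 lost its call without at least 1 replicate, Rps14 without trained replicate 2 alone (adjusted p = 0.0541). The libraries with many genes at 0 were the trained ones in CA1 and the untrained ones in DG, and their part in these differences was not tested. With at most 3 libraries per group, no single library could be tested as standing apart.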

How the results depend on the processing

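Another pseudocount, filter or rescaling changed no count by over 1.5 times. With the GC and length trend removed, the count was 13 in CA1 and 1 in CA3, next to 5.12% and 0.175% of all genes called. The median log2 difference was then -0.046 combined, -0.10 in CA1, -0.079 in CA3, 0.035 in DG and -0.023 for CA1 against CA3. With the sex-linked covariate the combined count was 0 and the median 0.017, and with a term for the libraries in which many genes were at 0 it was 0.010. A single fit of all libraries called 3 in CA1 and 0 in CA3, next to 4.93% and 2.81% of all genes. Another fit left out the 2 libraries with the highest Ddx3y beside a high Xist (untrained CA3 replicate 1 and trained DG replicate 3). DG then gave 5 and the interaction of CA1 and DG 4, next to 0.734% and 0.644% of all genes called. CA3, with a single untrained library left, had a median of -0.052. The medians were -0.069 for CA1 and -0.062 for CA3 against DG. Trained libraries alone gave 5 genes and a median of -0.14 for CA1 against DG and -0.11 for CA3 against DG, untrained ones -0.029 for the latter. With the replicate number as a block, CA3 gave 12 (7 higher, 5 lower, 8.38% of all genes called) with a median of -0.079. The other counts stayed within 1.5 times. In the training fits this block put trained and untrained animals of the same number together, although they are different mice. Summed with its near-identical copies, Rpl30 reversed to -0.052. Leaving out a replicate gave 4 to 21 genes combined, 3 to 12 in CA1, 0 to 4 in CA3, 1 to 20 in DG, 2 to 9 for CA1 against DG, 0 to 4 for the interaction of CA1 and DG and 0 to 1 for that of CA3 and DG. Over all fits without a trained or an untrained replicate, the medians ran from -0.038 to 0.0057 combined, -0.056 to -0.018 in CA1, -0.079 to -0.034 in CA3 and 0.027 to 0.12 in DG. They ran from -0.12 to -0.065 for CA1 against DG, -0.024 to -0.0012 for CA1 against CA3 and -0.10 to -0.057 for CA3 against DG. The causes were not tested.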
